A study of Mus musculus with 18 samples.

Results

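The smooth muscle and myofibroblast genes *Acta2*, *Tagln*, *Myh11*, *Cnn1*, *Des*, *Actg2*, *Myocd* and *Lmod1* were followed in perinatal mouse lung. Members were the probe sets whose only gene symbol was 1 of these 8 names. Each gene had 1 such probe set, so 8 of 35556 probe sets on the array were described. All 8 lay above the filter on low values.

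RNA of whole lung had been hybridized to Affymetrix Mouse Gene arrays, 3 lungs in each of 6 groups. In *Scap* Δ/Δ mice *Scap*, which carries the SREBP lipid regulators to their site of activation, was deleted in the respiratory epithelium by *Cre* under *SP-C-rtTA* and *tetO-CMV* control with doxycycline given to the dams early in gestation, and controls were *Scap* flox/flox littermates without *rtTA* or *Cre*. These lungs were taken at E18.5, after Cesarean section under anesthesia, and at PN1, the day of birth, after pentobarbital. Age in this line therefore cannot be told apart from birth and the way of collection. In *Insig1/2* Δ/Δ mice *Insig1*, which holds SCAP back, was deleted with the same transgenes on an *Insig2*-/- background that their *Insig1* flox/flox controls shared, and lungs were taken at E17.5. Among the arrays analysed here E17.5 was represented by the *Insig1/2* line alone, so age and line cannot be told apart there. Deletion was directed to epithelium, whereas the 8 genes are known from muscle and other mesenchyme, and the study describes the deletion as incomplete. In bulk RNA fewer cells of a type and less RNA per cell cannot be told apart.

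Smooth muscle of the airways and vessels, and the myofibroblasts of the forming alveolar septa, contract through actin and myosin filaments. *Acta2* and *Actg2* encode smooth muscle actins, *Myh11* the smooth muscle myosin heavy chain, *Tagln* and *Cnn1* the actin-binding proteins transgelin and calponin, *Lmod1* a nucleator of actin filaments, and *Des* the intermediate filament protein desmin. *Myocd* encodes myocardin, a cofactor of serum response factor (SRF), which binds the CArG box, a short DNA element known from promoters of smooth muscle genes. *Des* is also made in cardiac and skeletal muscle, and *Myocd* in the heart.

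The RefSeq promoter table for GRCm38.p6 held 4 of the 8 genes, and 3 are shown because 2 of them hold CArG-like letters and the third, of the gene with the largest change, does not. Capitals mark a CArG box with 1 changed base or the MCAT element CATTCC on either strand, which did not overlap each other. The form with 1 changed base was chosen after the sequences had been seen. The stretches end at the base before the transcription start of that table and are at chr19:34255374-34255573 (minus strand) for *Acta2*, chr1:135324613-135324812 (plus strand) for *Lmod1* and chr9:22099103-22099252 (plus strand) for *Cnn1*.
Acta2: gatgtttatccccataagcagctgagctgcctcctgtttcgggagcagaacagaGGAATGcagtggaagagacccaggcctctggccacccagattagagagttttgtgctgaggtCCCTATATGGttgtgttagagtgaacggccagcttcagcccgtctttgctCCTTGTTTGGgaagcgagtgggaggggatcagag
Lmod1: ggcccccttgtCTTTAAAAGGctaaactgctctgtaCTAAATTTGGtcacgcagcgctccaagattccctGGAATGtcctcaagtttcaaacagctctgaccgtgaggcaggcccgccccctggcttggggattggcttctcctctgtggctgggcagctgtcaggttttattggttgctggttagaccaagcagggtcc
Cnn1: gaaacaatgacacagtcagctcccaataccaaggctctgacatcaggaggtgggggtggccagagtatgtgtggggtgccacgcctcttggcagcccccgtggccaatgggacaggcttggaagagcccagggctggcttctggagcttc
*Acta2* held 2 CArG-like stretches, 84 to 75 and 34 to 25 bases before the start, and *Lmod1* held 2, 189 to 180 and 164 to 155 bases before it. Of 32851 promoters of 250 bases 17.5% held such a stretch, 12.6% the MCAT element and 1.47% an exact CArG box, which none of the 4 members held. *Cnn1* and *Des* held neither motif in this window. The letters are a description, and no binding was measured.

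The arrays were compared as log2 expression, as deposited. Medians of 16 arrays lay between 7.42 and 7.50, and those of the *Scap* Δ/Δ PN1 lungs KO17 and KO18 were 7.67 and 7.70. These lungs correlated with each other at r = 0.994 and with the rest at 0.931 to 0.960, whereas the rest correlated among themselves at 0.973 to 0.998, so calls between the ages in *Scap* Δ/Δ lungs are given with and without them. Without both, the PN1 arm of *Scap* Δ/Δ is the single lung KO16, which those fits assume to vary like the other groups. The deleted genes were lower by log2 differences of -0.41 (*Scap*, E18.5), -0.29 (*Scap*, PN1) and -1.22 (*Insig1*, E17.5), with no overlap between groups and an adjusted p from limma of 0.511, 0.0914 and 0.758.

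Between E18.5 and PN1 *Cnn1*, *Actg2*, *Tagln*, *Des* and *Acta2* rose in *Scap* control lungs, and *Myh11*, *Myocd* and *Lmod1* did not pass the test (limma over 22800 probe sets with Benjamini-Hochberg adjustment, call at an adjusted p under 0.05, 3 lungs against 3). Of all probe sets 1.19% were called higher, against 5 of the 8 members. The median log2 difference was 0.87 over the members and 0.01 over all probe sets. All 8 were called higher in *Scap* Δ/Δ lungs, where 17.5% of all probe sets were. Their median difference was 1.05 against -0.03 over all. No overlap with higher values at PN1 was found in 17.6% of all probe sets in controls and 16.7% in *Scap* Δ/Δ lungs. The count of 8 rested on KO17 and KO18 for *Myh11*, *Myocd* and *Lmod1*: without both, the 5 other members were called, with 3.07% of all probe sets higher. Fitted on the 6 *Scap* Δ/Δ arrays alone, *Cnn1* was the 1 member called (adjusted p = 0.0385; 0.0538 to 0.185 for the others; 0.0833% of all probe sets called higher), whereas the 6 control arrays alone gave the same 5, with 5.71% called higher. Leaving out KO11, KO12, KO17 or KO18 singly also left 5 called, with 2.5% to 3.66% of all probe sets higher.

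**Figure D1:**
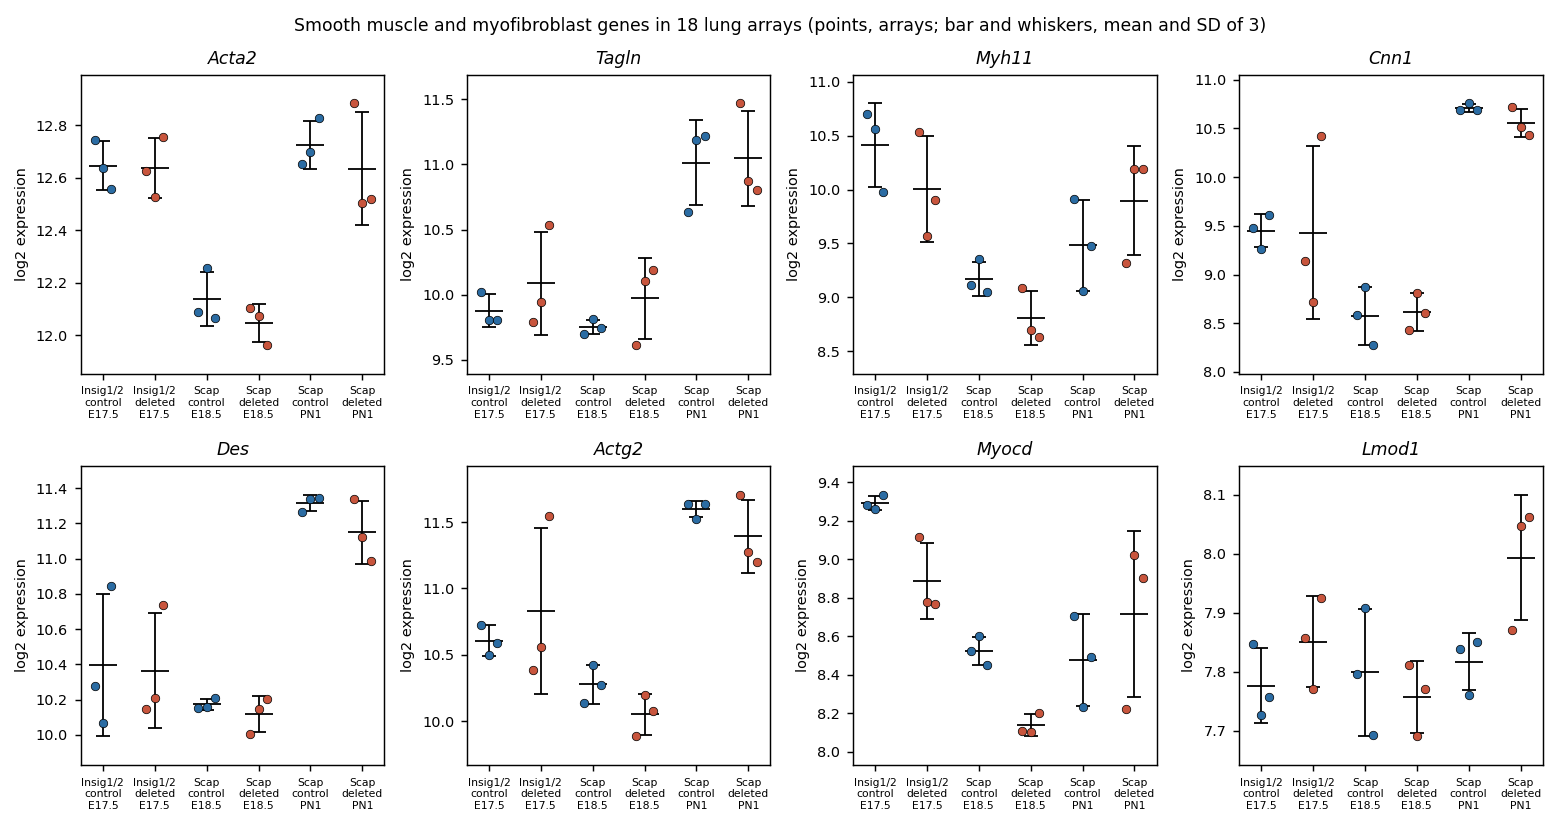
Log2 expression of each gene (vertical axis, its own scale per panel) in the 6 groups. Points are single lungs (blue, control; red, deleted), and bars with whiskers are the mean and SD of 3; *Cnn1*, *Actg2*, *Tagln*, *Des* and *Acta2* lie higher in every PN1 lung than in any E18.5 lung.

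*Cnn1* (chromosome 9, 22099221 to 22109221, GRCm38.p6) changed most. Its log2 expression in control lungs was 8.58, 8.87 and 8.28 at E18.5 and 10.69, 10.76 and 10.69 at PN1. The groups lay far apart, and the 3 PN1 values lay close together. The log2 difference was 2.13 (SE 0.15), a 4.39-fold rise with an adjusted p of 0.000201 from limma, the third smallest p of all probe sets. *Cnn1* in *Scap* Δ/Δ lungs went from 8.43, 8.81 and 8.60 to 10.72, 10.52 and 10.44. The groups again did not overlap, with a log2 difference of 1.94 (SE 0.15, adjusted p = 0.000258, limma), and 2.10 for KO16 alone against E18.5 (adjusted p = 0.00166, the 1 lung being assumed to vary like the other groups).

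*Actg2* (chromosome 6, 83512909 to 83536251), the gamma actin best known from visceral smooth muscle, had log2 expression of 10.13, 10.42 and 10.27 in E18.5 controls and 11.64, 11.53 and 11.63 in PN1 controls. The lowest PN1 lung was above the highest E18.5 lung by more than 1 log2 unit. The difference was 1.32 (SE 0.14, 2.50-fold, adjusted p = 0.00144, limma). *Scap* Δ/Δ lungs had 9.89, 10.19 and 10.08 at E18.5 and 11.71, 11.27 and 11.20 at PN1, a log2 difference of 1.34 (adjusted p = 0.000686, limma).

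*Des* (chromosome 1, 75360292 to 75368579) had log2 expression in controls of 10.15, 10.16 and 10.21 at E18.5 and 11.26, 11.34 and 11.35 at PN1. All 3 PN1 values lay above the E18.5 values. The difference of 1.14 (SE 0.10, 2.21-fold, adjusted p = 0.000561, limma) had the seventh smallest p of all probe sets. The *Scap* Δ/Δ values were 10.01, 10.15 and 10.20 at E18.5 and 11.34, 11.12 and 10.98 at PN1, again without overlap, and the log2 difference was 1.03 (adjusted p = 0.000458, limma).

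*Tagln* (chromosome 9, 45929628 to 45936058, overlapping *Pcsk7* in the annotation) varied more among lungs. Control log2 expression was 9.70, 9.81 and 9.75 at E18.5 and 10.63, 11.18 and 11.22 at PN1, where C13 lay below the other 2. The difference was 1.26 (SE 0.21, 2.39-fold, adjusted p = 0.014, limma). *Scap* Δ/Δ lungs gave 9.62, 10.11 and 10.19 at E18.5 and 11.47, 10.87 and 10.80 at PN1, a log2 difference of 1.08 (adjusted p = 0.0089, limma).

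*Acta2* (chromosome 19, 34240336 to 34255585), the actin by which myofibroblasts are usually recognized, moved least of the 5. Control log2 expression was 12.09, 12.26 and 12.07 at E18.5 and 12.65, 12.70 and 12.83 at PN1, a difference of 0.59 (SE 0.11, adjusted p = 0.0225, limma). *Scap* Δ/Δ lungs had 12.10, 12.07 and 11.96 at E18.5 and 12.88, 12.50 and 12.52 at PN1, also a difference of 0.59 (adjusted p = 0.00705, limma). Neither pair of groups overlapped. In controls the calls of *Acta2* and *Tagln* were lost without C7, C8, C9, C14 or C15 (adjusted p of 0.0605 to 0.118 and of 0.0625 to 0.0771), and that of *Acta2* also after median centring (0.104), where 0.526% of all probe sets were called higher.

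*Myh11* (chromosome 16, 14194527 to 14292188) had control log2 expression of 9.11, 9.35 and 9.05 at E18.5 and 9.91, 9.06 and 9.48 at PN1. The groups overlapped, and the difference of 0.31 (SE 0.26, 95% interval -0.27 to 0.89, adjusted p = 0.789, limma) was within the spread. The *Scap* Δ/Δ values were 9.09, 8.70 and 8.63 at E18.5 and 9.31, 10.19 and 10.19 at PN1. KO16 lay near the E18.5 lungs and KO17 and KO18 lay above every other lung of the *Scap* line. The log2 difference of 1.09 (adjusted p = 0.0166, limma) was 0.51 for KO16 alone (adjusted p = 0.337 under the same assumption).

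*Myocd* (chromosome 11, 65173608 to 65269989) had control log2 expression of 8.52, 8.60 and 8.45 at E18.5 and 8.71, 8.23 and 8.49 at PN1, a difference of -0.05 (95% interval -0.46 to 0.37, adjusted p = 0.999, limma). *Scap* Δ/Δ lungs had 8.11, 8.10 and 8.20 at E18.5 and 8.22, 9.02 and 8.90 at PN1. All 3 PN1 values lay above the E18.5 values, KO16 by only a small margin, and the difference of 0.58 (adjusted p = 0.0363, limma) was 0.09 for KO16 alone (adjusted p = 0.786 under that assumption).

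*Lmod1* (chromosome 1, 135324813 to 135368065) stayed within a narrow range, from 7.69 to 8.06 log2 over all 18 lungs. Controls had 7.80, 7.91 and 7.69 at E18.5 and 7.84, 7.76 and 7.85 at PN1, a difference of 0.02 (95% interval -0.17 to 0.20, adjusted p = 0.999, limma). The *Scap* Δ/Δ lungs had 7.81, 7.69 and 7.77 at E18.5 and 7.87, 8.05 and 8.06 at PN1. Their difference of 0.24 (adjusted p = 0.0485, limma) was 0.11 for KO16 alone (adjusted p = 0.537 under that assumption), and 0.06 after median centring of the arrays (adjusted p = 0.544).

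**Figure D2:**
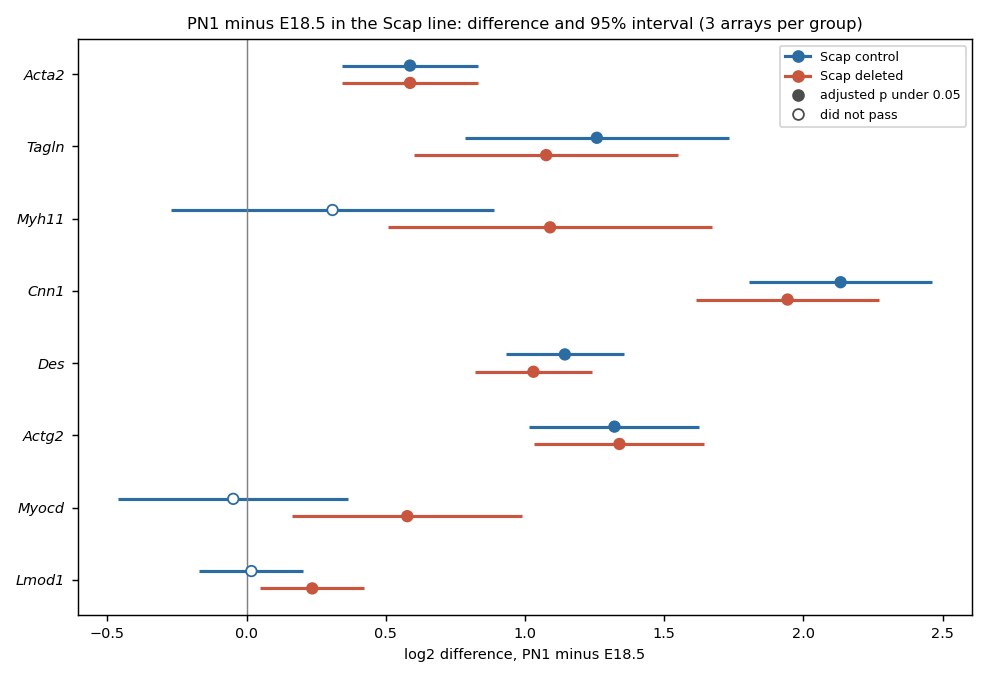
Log2 difference between PN1 and E18.5 (horizontal axis) for each gene in *Scap* control (blue) and *Scap* Δ/Δ lungs (red), with 95% intervals from limma. Filled points passed an adjusted p under 0.05; *Cnn1* stands farthest from 0 at 2.13 and 1.94, and *Myh11*, *Myocd* and *Lmod1* passed only in the *Scap* Δ/Δ lungs.

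Whether the change from E18.5 to PN1 differed with *Scap* deletion was tested as the difference between the effects at both ages. No member passed, and neither did any other probe set (0% called). *Myh11* had a log2 difference of 0.78 (95% interval -0.04 to 1.60, adjusted p = 0.265, limma) and *Myocd* of 0.63 (0.04 to 1.21, adjusted p = 0.265, limma), the latter 1 of 8 members at an unadjusted p under 0.05 where 18.3% of all probe sets were. For *Acta2* and *Actg2* the differences were 0.00 and 0.02, with intervals of -0.35 to 0.35 and -0.41 to 0.45. Without KO16, 3 members passed, *Myh11* with 1.07 (adjusted p = 0.0083, limma), *Myocd* with 0.87 (adjusted p = 0.000863) and *Lmod1* with 0.28 (adjusted p = 0.0323), as did 58.4% of all probe sets. With all 12 arrays a dependence of these genes on genotype was not shown.

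Of the 3 *Scap* Δ/Δ lungs at PN1, KO17 and KO18 lay near each other in these genes, apart from KO16. Relative to the mean of the PN1 controls, KO17 and KO18 were higher in *Myh11* by 0.70 and 0.71, in *Myocd* by 0.54 and 0.42 and in *Lmod1* by 0.23 and 0.25 on the log2 scale. KO16 differed from that mean by -0.17, -0.25 and 0.05 in these 3 genes. The direction was opposite in the 5 other genes, where KO17 and KO18 had differences of -0.14 to -0.40 as the values were deposited, from -0.14 and -0.21 in *Tagln* to -0.32 and -0.40 in *Actg2*. After quantile normalization *Acta2* had -0.16 and -0.12, *Actg2* -0.14 and -0.20, *Tagln* 0.08 and 0.03 and *Cnn1* 0.01 and -0.06, and *Des* was -0.12 in KO18 and near 0 in KO17. After median centring all 5 were lower in both lungs, by differences of -0.34 to -0.63. With quantile normalization *Myh11* kept 0.87 and 0.88 and *Myocd* 0.64 and 0.48. With median centring *Myh11* had 0.51 and 0.48, *Myocd* 0.35 and 0.20 and *Lmod1* 0.03 and 0.02. In PN1 controls *Lmod1*, *Myocd* and *Myh11* had the lowest means of the 8 genes, 7.82, 8.48 and 9.48. The 5 other genes had means of 10.71 to 12.72 there. The SD over all probe sets was 2.08 in both KO17 and KO18, against 2.23 to 2.30 in the other arrays. The part of the shifted medians and of the smaller spread of these arrays in the values was not tested further.

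**Figure D3:**
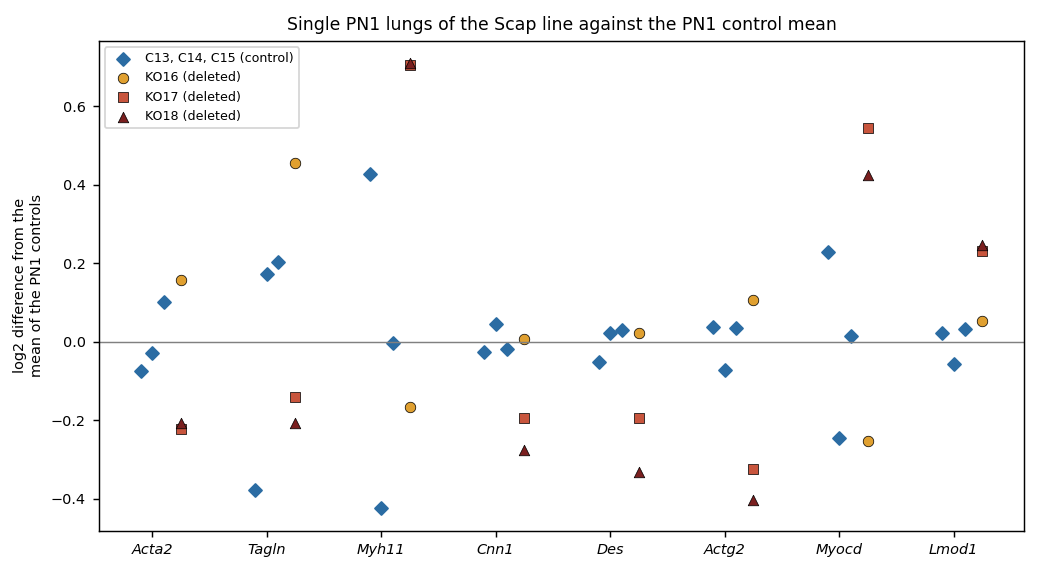
Log2 difference of each PN1 lung from the mean of the 3 PN1 controls (vertical axis) for the 8 genes, as the values were deposited. Blue diamonds are controls and other symbols the single *Scap* Δ/Δ lungs; KO17 and KO18 lie near each other in every gene, at 0.70 and 0.71 in *Myh11* and at -0.32 and -0.40 in *Actg2*, apart from KO16.

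At PN1 no member was called between *Scap* Δ/Δ and control lungs (0.00877% of all probe sets called, 2 in number), nor was any at an unadjusted p under 0.05, where 32.3% of all probe sets were. The median log2 difference was -0.03 over the members and -0.06 over all. *Myh11* had a difference of 0.42 (adjusted p = 0.276, limma), *Myocd* of 0.24 (95% interval -0.17 to 0.65) and *Acta2* of -0.09 (-0.34 to 0.16). *Lmod1* alone had no overlap between groups (difference 0.18, SE 0.08, adjusted p = 0.17, limma; exact permutation p = 0.1, the smallest that 3 against 3 can give, two-sided), as had 5.59% of all probe sets in that direction. Without KO16, 6 members were called, *Myh11* (0.71), *Myocd* (0.48) and *Lmod1* (0.24) higher and *Actg2* (-0.36), *Des* (-0.26) and *Acta2* (-0.21) lower, when 24.1% of all probe sets were called higher and 37.8% lower.

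At E18.5 no member was called either (0.00877%), and none had an unadjusted p under 0.05, against 9.24% of all probe sets. The median log2 difference was -0.07 over the members and -0.04 over all. *Myocd* was the 1 member without overlap, with 8.11, 8.10 and 8.20 in *Scap* Δ/Δ against 8.52, 8.60 and 8.45 in controls. Its difference was -0.39 (SE 0.19, 95% interval -0.80 to 0.03, adjusted p = 0.553, limma). In that direction 21% of all probe sets had no overlap. For *Cnn1* and *Des* the intervals were -0.29 to 0.36 and -0.27 to 0.16, and for *Tagln* -0.26 to 0.69, around differences of 0.04, -0.05 and 0.22.

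In the *Insig1/2* line at E17.5 no member passed, and no probe set did (0% called). *Myocd* again stood without overlap, at 9.28, 9.26 and 9.33 in controls and 9.11, 8.78 and 8.77 in *Insig1/2* Δ/Δ lungs. Its log2 difference was -0.41 (SE 0.11, 95% interval -0.66 to -0.15, adjusted p = 0.758, limma), the only member at an unadjusted p under 0.05, where 4.1% of all probe sets were. *Myh11* had 10.70, 10.56 and 9.97 against 10.54, 9.56 and 9.91, a difference of -0.41 within a spread that gave an interval of -1.11 to 0.29, and the difference was -0.17 with a block for C19, C20 and KO22 against C21, KO23 and KO24. *Acta2*, with a difference of -0.01 (interval -0.22 to 0.20), and *Lmod1*, with 0.07 (interval -0.10 to 0.25), had the narrowest intervals of the 8. In that direction 4.22% of all probe sets had no overlap, as *Myocd* did.

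**Figure D4:**
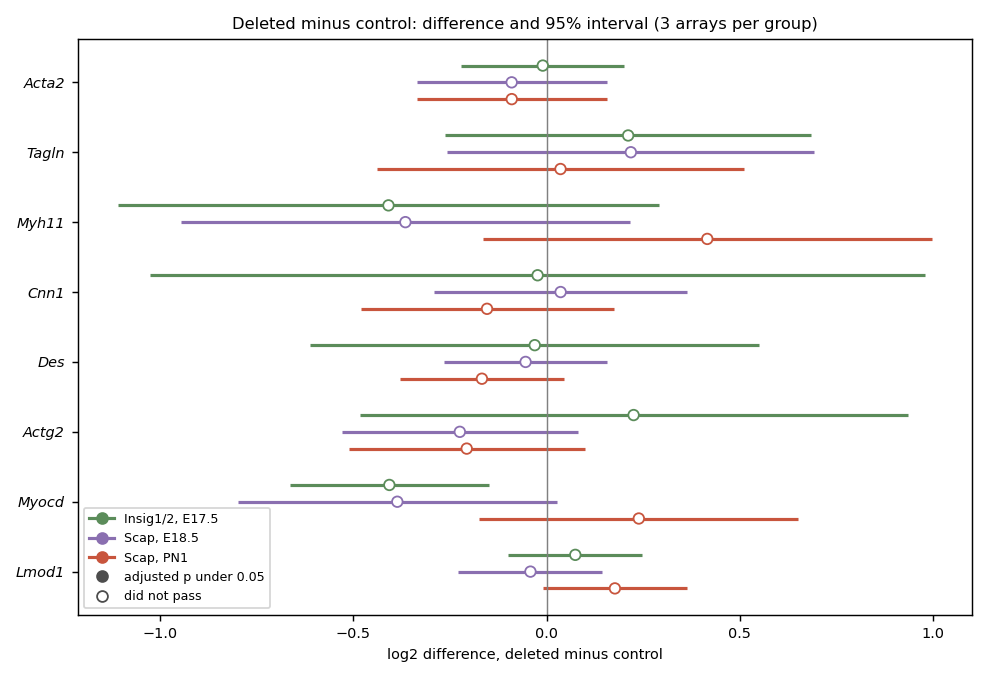
Log2 difference, deleted minus control (horizontal axis), for each gene in the *Insig1/2* line at E17.5 and the *Scap* line at E18.5 and PN1, with 95% intervals from limma. All points are open, since no member passed an adjusted p under 0.05; *Myocd* at E17.5 is the gene whose interval, -0.66 to -0.15, does not reach 0.

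*Cnn1*, *Actg2*, *Tagln* and *Des* varied among the E17.5 lungs, and so did genes of striated muscle. *Acta2* (12.53 to 12.76) and *Lmod1* (7.73 to 7.92) varied little, and *Myh11* was not highest in C21 (9.97) or KO24 (9.91). KO24 was the highest of the 6 lungs in *Cnn1* (10.43, against 8.72 to 9.61), *Actg2* (11.54, against 10.39 to 10.73) and *Tagln* (10.53, against 9.79 to 10.02). In KO24 the mean log2 expression of 12 skeletal muscle genes was 8.51, against 7.38 to 7.80 in the other 5, with *Myl1*, a myosin light chain of fast muscle, at 10.83 against 5.92 to 8.33. The control C21 had the highest *Des*, 10.84, and KO24 the next, 10.74, against 10.07 to 10.28 in the others. In C21 the mean of 12 cardiac genes was 10.80, against 8.70 to 9.50, with *Nppa*, the atrial natriuretic peptide, at 12.63 against 6.70 to 7.74. How far these other muscles contributed to the values of *Des*, *Cnn1*, *Actg2* and *Tagln* was not tested. Without C21 and KO24 the difference was -0.58 for *Myh11*, -0.44 for *Cnn1*, -0.33 for *Myocd* and -0.14 for *Actg2*, with a median of -0.13 over the members, and again no member and no other probe set was called. C19, C20 and KO22 correlated among themselves at 0.996 to 0.997 and C21, KO23 and KO24 at 0.993 to 0.996, against 0.984 to 0.991 between these sets.

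**Figure D5:**
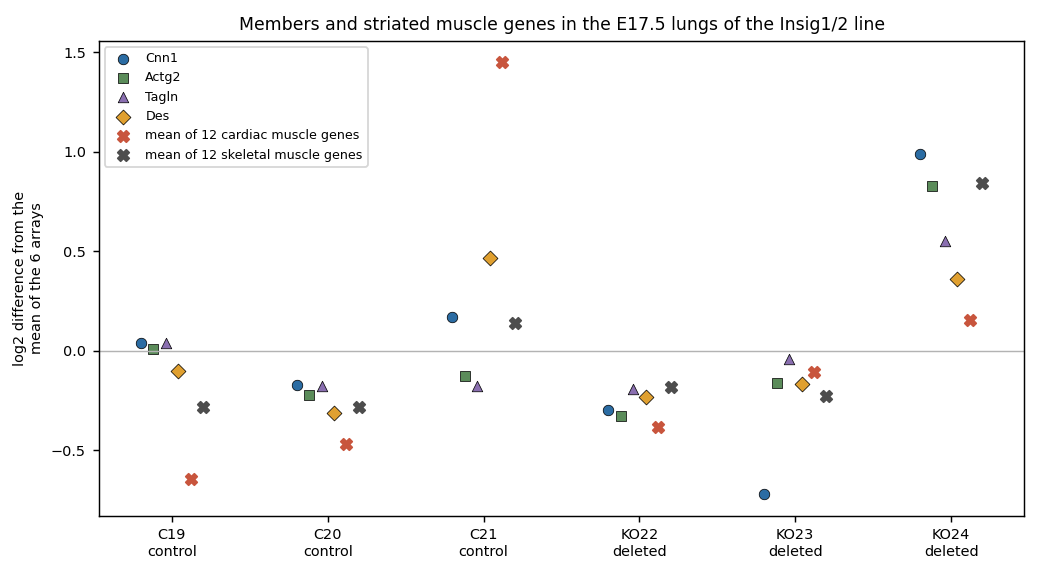
Log2 difference from the mean of the 6 E17.5 lungs (vertical axis) for *Cnn1*, *Actg2*, *Tagln* and *Des* and for the means of 12 cardiac and 12 skeletal muscle genes, with 1 column per lung. KO24 is highest in *Cnn1*, *Actg2*, *Tagln* and the skeletal mean, and C21 in *Des* and the cardiac mean.

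In the *Scap* line the cardiac mean in controls was 9.02 to 9.12 at E18.5 and 9.25 to 9.43 at PN1, and 0 of its 12 genes were called between the ages, 10 being above 0 with a median log2 difference of 0.33. No overlap with higher values at PN1 was found in 8 of the 12, against 17.6% of all probe sets. Of 9 skeletal genes tested 0 were called and 7 were above 0, with a median of 0.03 and list means of 7.44 to 7.61 and 7.53 to 7.62. *Actc1* and *Acta1*, the cardiac and skeletal actins, whose coding sequences resemble those of *Acta2* and *Actg2*, had differences of 0.56 (adjusted p = 0.0511, limma) and 0.76 (adjusted p = 0.0793). Whether the probe sets tell these actins apart was not tested. *Nppa* lay at 7.33 or below in all 12 *Scap* lungs. In *Scap* Δ/Δ lungs the cardiac mean was 9.03 to 9.40 at E18.5 and 8.85 to 9.52 at PN1. Of the 12 cardiac genes 2 were called higher there and 0 lower, against 17.5% and 20.1% of all probe sets. These were *Nppa* by 0.50 (adjusted p = 0.0205, limma) and *Actc1* by 0.43 (adjusted p = 0.0305, limma). Without KO17 and KO18, with KO16 alone at PN1, the differences were 0.65 for *Nppa*, 0.47 for *Actc1* and 0.88 for *Acta1*.

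The order of the 6 groups differed between genes. *Cnn1*, *Des* and *Actg2* had their highest means in the PN1 control and PN1 *Scap* Δ/Δ lungs, the E17.5 groups between, and both E18.5 groups lowest. Neighbours in this order were separated for *Cnn1* and *Des* only at the step from PN1 to E17.5, by 1.11 and 0.75 log2 units, and for *Actg2* only at the step from E17.5 controls to E18.5 controls, by 0.33. *Tagln* was separated only below the PN1 groups, by 0.92. For *Acta2* the E17.5 means (12.65 and 12.64) lay beside the PN1 means (12.72 and 12.63), all 4 overlapping in their order and 0.50 above E18.5. *Myocd* and *Myh11* were highest in E17.5 controls, at 9.29 ± 0.04 and 10.41 ± 0.39 (SD, n = 3). *Lmod1* had no step without overlap.

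Single lungs were also compared gene by gene. Over the 18 arrays, which share groups and scale, the Pearson correlation of log2 values was 0.964 for *Cnn1* and *Actg2*, 0.933 for *Cnn1* and *Des* and 0.913 for *Myh11* and *Myocd*. It was -0.031 for *Tagln* and *Myh11* and -0.234 for *Tagln* and *Myocd*. Of 16457 other probe sets of 1 symbol, those most like the mean of the members over the 18 arrays were *Sema3c* (r = 0.944), *Lgals1* (0.939), *Sync* (0.936), *Thbs2* (0.916) and *Heyl* (0.913). Without KO17 and KO18 they were *Sema3c*, *Lgals1*, *Pcbp4*, *Thbs2* and *Sync*, from 0.934 to 0.927.

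Of 24 other genes of the contractile apparatus tested, 2 rose in controls from E18.5 to PN1, *Tpm2*, a tropomyosin, by 0.77 (adjusted p = 0.0434, limma) and *Pdlim7*, an actin-associated LIM protein, by 0.57 (adjusted p = 0.00756, limma). Of all probe sets 1.19% were called higher. The median difference of the 24 genes was 0.11. After deletion 7 were called higher and 1 lower over the same ages, against 17.5% and 20.1% of all probe sets, and 6 and 0 without KO17 and KO18, against 3.07% and 3.13%. *Flna* (filamin A) and *Actn1* (alpha-actinin), called with 0.80 and 0.58, had 0.47 (adjusted p = 0.106) and 0.53 (adjusted p = 0.0772) without both. *Mylk*, the myosin light chain kinase, had a difference of -0.39 in controls (adjusted p = 0.353), and *Smtn*, smoothelin, of 0.01 (adjusted p = 0.999). None of the 24 was called between genotypes. *Tgfb1i1*, a cofactor known from smooth muscle, had no overlap at E18.5 (-0.33, adjusted p = 0.511, limma) and at PN1 (-0.27, adjusted p = 0.0914, limma). At E18.5 no overlap with lower values was found in 3 of the 24 genes, against 21% of all probe sets. The share at PN1 in that direction was not computed.

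Of 12 genes for SRF, its cofactors and other regulators, 1 rose in controls, where 1.19% of all probe sets were called higher. It was *Klf4*, known as a repressor of smooth muscle genes, by 0.60 (adjusted p = 0.0244, limma). *Srf* itself had a difference of 0.01 in controls and in *Scap* Δ/Δ lungs (adjusted p = 0.999 and 0.936). Among *Scap* Δ/Δ lungs 3 were called higher and 2 lower, against 17.5% and 20.1% of all probe sets. The higher ones were *Tead1*, whose factor binds the MCAT element (0.79, with overlap between groups), *Klf4* (0.70) and *Fhl2* (0.67). *Prrx1* with -0.41 was among the lower ones. Without KO17 and KO18, with KO16 alone at PN1, the differences were 0.85 for *Klf4*, 0.93 for *Fhl2*, 0.30 for *Tead1* and -0.0075 for *Prrx1*. None of the 12 genes was called between genotypes.

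Of 11 alveolar myofibroblast genes tested, *Mustn1* and *Tgfbi* rose in controls by 1.20 (adjusted p = 0.00741, limma) and 0.90 (adjusted p = 0.00422, limma), and *Pdgfra*, the receptor by which precursors of these cells are known, fell by 0.86 (adjusted p = 0.00474, limma). The median difference was -0.13, and 1.19% of all probe sets were called higher and 1.39% lower. In *Scap* Δ/Δ lungs the same 3 genes changed by 1.09 (*Tgfbi*), 0.94 (*Mustn1*) and -0.67 (*Pdgfra*), and *Aspn* was called with -0.61. Of the 11 genes 2 were called higher and 2 lower, against 17.5% and 20.1% of all probe sets. Without KO17 and KO18, with KO16 alone at PN1, the differences were 1.18 (*Tgfbi*), 1.27 (*Mustn1*), -0.64 (*Pdgfra*) and -0.33 (*Aspn*). The other genes of the list then lay between -0.95 (*Hhip*) and 0.67 (*Fgf18*). In controls 0 of 10 pericyte genes, 0 of 12 lung fibroblast genes, 0 of 8 endothelial genes, 0 of 8 epithelial genes and 0 of 6 cartilage genes were called, and 1 of 6 mesothelial genes, *Upk1b*, rose by 1.15 (adjusted p = 0.00474, limma). In *Scap* Δ/Δ lungs 3 of the pericyte, 4 of the fibroblast, 3 of the epithelial, 2 of the endothelial, 4 of the cartilage, 3 of the mesothelial, 2 of the cardiac and 4 of the skeletal genes were called, where 37.6% of all probe sets were. Without KO17 and KO18 these counts were 1, 3, 1, 0, 1, 1, 1 and 1, where 6.2% of all probe sets were called. *Kcnj8* of pericytes had -1.45 and *Lum* of fibroblasts -1.80, and -0.70 and -1.52 without both. Of the called genes 1 was higher and 2 lower among those of pericytes, and 1 higher and 3 lower among those of fibroblasts. The higher ones were *Trpc6* of pericytes (0.29) and *Col13a1* of fibroblasts (0.54), with 0.24 and 0.18 without both. The median difference was 0.05 over the pericyte genes and -0.26 over the fibroblast genes.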

How the data were processed

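The values were log2 expression per probe set of Affymetrix Mouse Gene arrays, as deposited by the authors, who report further analysis in GeneSpring GX. Summarization and normalization are not given in the sources used here. Groups came from the sample labels, and the study names 3 biological replicates per condition. Array numbers differ between groups, so no lungs were paired. The *Scap* lungs of E17.5 were not analysed here.

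Following the pre-filter of the methods, a probe set entered a fit if it reached percentile 35 of the array in 66% or more of the arrays. Separate models were fitted with limma 3.58.1 (R 4.3.3), 1 for the 12 arrays of the *Scap* line, with a mean for each of 4 groups and 22800 probe sets, and 1 for the 6 arrays of the *Insig1/2* line, with 22775, and Benjamini-Hochberg adjustment over all probe sets kept and a call at an adjusted p under 0.05. The pooled spread of the *Scap* fit was modelled on the two-way analysis of variance of the methods, which also covered E17.5 and is not repeated here. Depth has no meaning for arrays, and their number limits the precision. The fit was tested on simulated data with independent noise in each array. These data held neither the shift of KO17 and KO18 nor the sets of *Insig1/2* arrays, so that test does not cover their influence. Exact permutation tests of 3 against 3 cannot give a p below 0.1.

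The members and the gene lists were chosen with earlier results of these data known. Named are the members, the 5 genes most like the mean of the members and some of the list genes that a rule allowed. In each list the rule allowed up to 4 called genes per comparison with the largest differences or, where none was called, up to 2 without overlap. Not every gene that it allowed is named. *Mylk*, *Smtn* and *Srf* in the age comparison and *Myl1* and *Nppa* at E17.5 were named after their values were seen. Among the 21789 probe sets with 1 symbol, none was found for 2 list genes. Figures were drawn with Python 3.11.15 and matplotlib 3.10.9. Alternatives were other filters and scalings, other arrays in the fit, the t-test that the methods name for *Insig1/2*, array weights and leaving out each array. Fits on only the 6 arrays compared, without C21 and KO24, and of the gene lists without KO17 and KO18 were chosen after seeing the data.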

Additional observations from a re-analysis of the deposited data

How the results depend on the processing

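The number of arrays limits these results. Of the 8 genes, *Cnn1*, *Actg2* and *Des* kept their call in *Scap* controls between E18.5 and PN1 in each fit that left out 1 array. Student's t-test, which the methods name for the *Insig1/2* comparison, was also run between the ages, with a call at an adjusted p under 0.05. It called 3 members in controls, where 2.5% of all probe sets were called, and 0 in *Scap* Δ/Δ lungs (0.0219%). The thresholds of the methods, a corrected p of 0.01 and a fold change of 1.5, were not applied to these counts. In *Scap* Δ/Δ lungs 5 were called after median centring (37.9% of all probe sets), 5 without KO17 and KO18 (6.2%) and 1 with only the 6 arrays compared (0.281%), and the median was 1.19 with quantile normalization, 0.88 with median centring and 0.91 with array weights. With array weights 1 member was called between genotypes at E18.5 (11.2% of all probe sets), 6 at PN1 (68.1%), 2 in the *Insig1/2* line (36.7%) and 3 for the difference between ages (64.4%). The PN1 median was -0.16 with median centring and -0.17 with array weights, where *Tagln* turned to -0.10 and -0.13. Without KO17 and KO18, with KO16 assumed to vary like the other groups, the PN1 differences turned to 0.16 for *Acta2*, -0.17 for *Myh11*, 0.0065 for *Cnn1*, 0.023 for *Des*, 0.11 for *Actg2* and -0.25 for *Myocd*. At E17.5 *Des* turned to 0.012 with array weights and *Acta2* to 0.0099 with the array set as a block, and without C21 and KO24 *Tagln* turned to -0.049, *Des* to 0.0069 and *Actg2* to -0.14. The median difference between the *Scap* effects was 0.10 with quantile normalization, -0.16 with median centring, -0.10 with array weights and 0.17 without KO17 and KO18. Of single genes in it, *Des* turned to 0.037 with quantile normalization, *Acta2* and *Actg2* to -0.17 and -0.16 with median centring and to -0.10 and -0.11 with array weights, and *Tagln* and *Des* to 0.24 and 0.077 without KO17 and KO18.

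Leaving out each array in turn gave 3 to 5 members called in *Scap* controls (0.619% to 12% of all probe sets), 5 to 8 in *Scap* Δ/Δ lungs (7.56% to 72.1%), 0 to 6 at PN1 (0.00441% to 61.9%) and 0 to 3 for the difference (0% to 58.4%), the 6 and the 3 without KO16. Medians ran from 0.90 to 1.05 in *Scap* Δ/Δ lungs, from -0.19 to 0.055 at PN1 and from -0.13 to 0.087 for the difference. Signs turned for *Cnn1* (-0.11 to 0.18), *Des* (-0.098 to 0.0021) and *Lmod1* (-0.095 to 0.013) at E18.5 and for *Tagln* at PN1 (-0.17 to 0.16). At E17.5 they turned for *Acta2* (-0.070 to 0.045), *Tagln* (-0.012 to 0.36), *Cnn1* (-0.52 to 0.33), *Des* (-0.22 to 0.19) and *Actg2* (-0.13 to 0.45), and the median ran from -0.17 to 0.08. Between ages in controls they turned for *Myocd* (-0.16 to 0.075) and *Lmod1* (-0.036 to 0.072), and in the difference for *Acta2* (-0.12 to 0.067) and *Actg2* (-0.14 to 0.12). The cause of these changes was not tested. No paired analysis was possible because array numbers are not shared between groups.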
